A study of Capra hircus with 3 samples.

Results

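Genes of fatty acid uptake and triglyceride assembly were followed through lactation in the mammary gland of Laoshan dairy goats. The genes were set by a list of 10 symbols, LPL, VLDLR, SLC27A6, FABP3, ACSL1, GPAM, AGPAT1, LPIN1, DGAT1 and DGAT2, and each was found by its NCBI gene ID. A row was found for 9 of the 10, out of 13023 protein-coding genes, while no row carried the gene ID of SLC27A6, a fatty acid transporter, which was not analysed here. The 3 groups were stages of lactation in Laoshan goats of 4 years in lactation number 3. The goats were biopsied under anaesthesia at 10 days (early lactation), 90 days (peak lactation) and 210 days (late lactation) after parturition. The methods name 5 goats in all and read as if the same animals were sampled at each stage. The RNA of 5 goats was pooled into 1 library per stage, so each value describes a pool of whole tissue and the spread between goats is not known. No difference below has a replicate check or a p-value, and 2-fold is used as the limit of a call because the study used that fold. The values are FPKM, fragments scaled to transcript length and to mapped reads, which sets genes of unlike length on 1 scale. They also depend on how much of a library its most abundant transcripts take up, and the most abundant locus held 30.0% of the FPKM sum in the early-labelled library, 46.0% in the peak-labelled one and 29.9% in the late-labelled one. Ratios between libraries below are of FPKM as deposited. The read numbers behind each FPKM were not used here, so its precision is unknown.

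Most milk triglyceride is put together inside the secretory epithelial cell. Fatty acids reach that cell from the blood when lipoprotein lipase, anchored on the capillary wall, cuts them from circulating triglyceride, or are made in the cell itself. Long-chain fatty acids are then bound by small carrier proteins, activated with coenzyme A, and joined in turn to glycerol 3-phosphate in the endoplasmic reticulum, where the finished triglyceride buds off as a droplet.

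The labels of the peak and late libraries carry a doubt that touches every result below. The ratio of the late-labelled library over the peak-labelled one had the same direction as in the supplementary lncRNA lists for 20 of 148 annotated lncRNA genes matched by accession. The ratio of the peak-labelled library over the early-labelled one had the direction listed there for late over early lactation in 117 of 135 genes, while the late-labelled library had it in 58. The third list, peak over early lactation, separated the labels little. Of its 67 genes, the peak-labelled library over the early-labelled one had the listed direction in 36 and the late-labelled one in 43. The libraries are hence called peak-labelled and late-labelled throughout, and every statement on the libraries labelled peak and late would change places if these columns were exchanged.

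All 9 genes had their lowest FPKM in the peak-labelled library, against 41.2% of all protein-coding genes, and 7 of them had their highest in the late-labelled one. Between the libraries labelled early and peak, 7 of the 9 differed at least 2-fold, and all 7 were lower in the peak-labelled one. The background was 17.7% of 13020 protein-coding genes at least 2-fold apart and 6.8% at least 2-fold lower. Between early and late, 1 of the 9 genes differed at least 2-fold, DGAT2, which was lower in the late-labelled library. The background was 8.71% of protein-coding genes, with 6.74% lower and 1.97% higher. Between peak and late, the same 7 genes as in the first comparison were higher in the late-labelled library, with a background of 25.9% at least 2-fold apart and 8.55% at least 2-fold higher. These 7 were LPL, FABP3, ACSL1, GPAM, AGPAT1, LPIN1 and DGAT2, and 5.25% of protein-coding genes were likewise at least 2-fold lower in the peak-labelled library than in both others. Each library enters 2 of these comparisons, so they are not independent evidence.

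**Figure D1:**
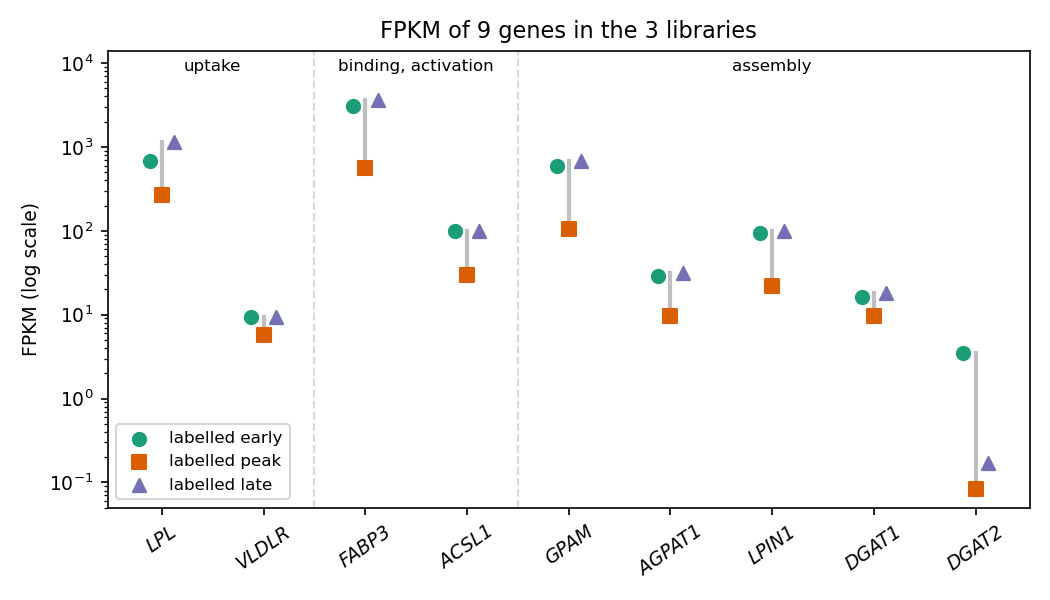
FPKM (log axis) of the 9 genes in the early-labelled (circles), peak-labelled (squares) and late-labelled library (triangles), with a grey line from the lowest to the highest value of each gene. The square is the lowest point for each of the 9 genes, and the circle and triangle lie close together for all but LPL and DGAT2.

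Among the uptake genes, LPL encodes lipoprotein lipase, which releases fatty acids from the triglyceride of chylomicrons and very low density lipoprotein. LPL (gene ID 100860750, NW_005100741.1 from 1424824 to 1450064) had 683 FPKM in the early-labelled library, 269 FPKM in the peak-labelled one and 1145 FPKM in the late-labelled one. It was the only one of the 9 genes with clearly more in the late-labelled library than in the early-labelled one, 1.68-fold, and it lay 2.54-fold lower in the peak-labelled one than in early. The log2 ratio of late over early, 0.75, was higher than that of 96.8% of protein-coding genes, although it stayed below 2-fold. The log2 ratio of late over peak was 2.09. LPL ranked 52nd of all protein-coding genes by FPKM in the early-labelled library, 82nd in the peak-labelled one and 23rd in the late-labelled one.

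VLDLR encodes the very low density lipoprotein receptor, a surface receptor that binds the particles on which lipoprotein lipase acts. VLDLR (102177522, NW_005100737.1 from 9318697 to 9340701) had 9.51 FPKM in the early-labelled library, 5.68 FPKM in the peak-labelled one and 9.39 FPKM in the late-labelled one. The early and late values were almost equal, with a log2 ratio of -0.02, and the peak value was 1.67-fold lower than early and so below the limit of a call. In the same libraries the FPKM of LPL was 71.9, 47.4 and 122 times that of VLDLR.

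FABP3, the heart-type fatty acid-binding protein, is the carrier of long-chain fatty acids in the cytosol of the secretory cell. FABP3 (100860846, NW_005100623.1 from 24091105 to 24099623) was the most abundant of the 9 genes in each library, with 3051 FPKM in the early-labelled one, 563 FPKM in the peak-labelled one and 3583 FPKM in the late-labelled one. It ranked 7th, 37th and 6th among all protein-coding genes in these libraries. Its log2 ratio of peak over early, -2.44, was a 5.42-fold lower level, and that of late over early was 0.23.

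ACSL1 encodes a long-chain acyl-CoA synthetase, which activates fatty acids with coenzyme A for esterification or oxidation. ACSL1 (102177866, NW_005100952.1 from 3578354 to 3626523) had 98.6 FPKM in the early-labelled library, 30.1 FPKM in the peak-labelled one and 100.2 FPKM in the late-labelled one. The early and late levels were thus within 1.02-fold, and the peak-labelled one stood 3.28-fold below early.

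The steps of triglyceride assembly begin with GPAM, the mitochondrial glycerol-3-phosphate acyltransferase that attaches the first fatty acid. GPAM (102176386, NW_005100948.1 from 3239277 to 3309482) had 591 FPKM in the early-labelled library, 105 FPKM in the peak-labelled one and 674 FPKM in the late-labelled one. Peak was 5.64-fold lower than early and 6.44-fold lower than late, the widest differences among those of the 9 genes with at least 1 FPKM in each library. GPAM ranked 58th, 212th and 42nd by FPKM in these libraries.

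AGPAT1 adds the next fatty acid and yields phosphatidate. AGPAT1 (100860912, NW_005100919.1 from 713093 to 726720) had 29.1 FPKM in the early-labelled library, 9.53 FPKM in the peak-labelled one and 31.6 FPKM in the late-labelled one. LPIN1 encodes lipin 1, a phosphatase that turns phosphatidate into diacylglycerol. LPIN1 (102180603, NW_005100781.1 from 24528987 to 24578849) had 95.1 FPKM in the early-labelled library, 21.8 FPKM in the peak-labelled one and 100.5 FPKM in the late-labelled one. Both genes had close levels in early and late and a lower one in peak, 3.05-fold below early for AGPAT1 and 4.37-fold for LPIN1.

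DGAT1 and DGAT2 are unrelated enzymes that attach the last fatty acid and so complete the triglyceride. DGAT1 (100861225, NW_005100810.1 from 2269353 to 2278117) had 16.1 FPKM in the early-labelled library, 9.72 FPKM in the peak-labelled one and 18.0 FPKM in the late-labelled one. With 1.66-fold between early and peak and 1.85-fold between peak and late, it was not called in any comparison. DGAT2 (102174409, NW_005100826.1 from 365620 to 398657) had 3.53 FPKM in the early-labelled library, 0.0828 FPKM in the peak-labelled one and 0.173 FPKM in the late-labelled one. It was the exception to the order of the other genes, high in early alone, with a log2 ratio of -5.41 for peak over early and -4.35 for late over early. The ratio of values this low depends on the pseudocount, and with a pseudocount of 1 FPKM they were -2.07 and -1.95. The 2.08-fold higher value in late than in peak was no longer a call under that pseudocount, with a log2 ratio of 0.11.

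**Figure D2:**
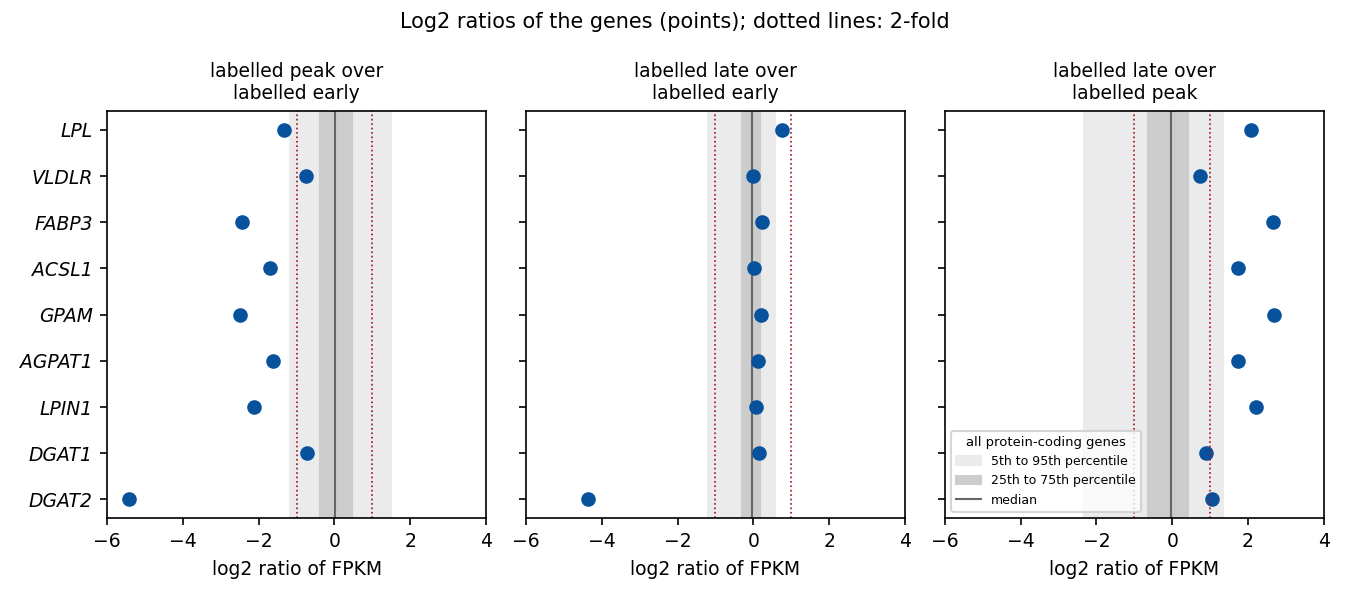
Log2 ratio of FPKM for the 9 genes (points) in the 3 comparisons of libraries, with the range of all protein-coding genes in grey and the 2-fold limits as dotted lines. In the left panel all points lie below 0 and 7 lie beyond the 2-fold limit, while in the middle panel all but LPL and DGAT2 lie close to 0.

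As a list, the 9 genes had a median log2 ratio of -1.71 for peak over early, against a median of 0.01 over all protein-coding genes. For late over early the median was 0.12 against -0.03, and for late over peak 1.74 against -0.03. Abundant genes as a class were lower in the peak-labelled library. Over the 4976 protein-coding genes with a mean of at least 10 FPKM, a limit set after seeing the data, the median log2 ratio of peak over early was -0.22, and 8.64% were at least 2-fold lower in peak. Of the 9 genes, 7 reached this mean, and 6 of them were at least 2-fold lower. Without the peak-labelled library, what remains is the comparison of early and late, with 7 of the 9 ratios above 0 and the 1 call for DGAT2. In this comparison 54.1% of protein-coding genes were below 0, and 45.6% of those with a mean of at least 10 FPKM. Of the 7 genes above 0, LPL was 1.68-fold higher in late, and the others only 1.02-fold to 1.17-fold.

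The pairs most alike in their pattern over the 3 libraries, by the distance between log2 values centred on the gene's mean, were FABP3 with GPAM at 0.045, ACSL1 with AGPAT1 at 0.083 and VLDLR with DGAT1 at 0.14. FABP3 and GPAM, a carrier and an acyltransferase, thus ran almost in parallel although FABP3 was the more abundant. DGAT2 was farthest from every other gene, at a distance of at least 4.04. Only 3 libraries stand behind these distances.

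The order of abundance along the route was uneven. In the early-labelled library, FABP3 had 4.46 times the FPKM of LPL, 30.9 times that of ACSL1 and 189 times that of DGAT1. GPAM had 20.3 times the FPKM of AGPAT1 and 36.7 times that of DGAT1 in this library. In the peak-labelled library, GPAM had 11.0 times the FPKM of AGPAT1 and 10.8 times that of DGAT1, and in the late-labelled one 21.4 and 37.5 times. The difference in level between the opening and the closing step was therefore smaller in the peak-labelled library. DGAT1 had 4.56 times the FPKM of DGAT2 in early, 117 times in peak and 104 times in late.

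Most of these enzymes have close relatives at the same step, and the shares of a step's summed FPKM differed between libraries. ACSL1 made up 72.3% of the FPKM of the 5 long-chain acyl-CoA synthetases in the early-labelled library, 36.3% in the peak-labelled one and 71.4% in the late-labelled one. ACSL5, a synthetase of mitochondria and endoplasmic reticulum, made up 5.67%, 26.8% and 4.75%, since it had 7.73 FPKM in early, 22.2 FPKM in peak and 6.66 FPKM in late. The genes of this step thus held more than 1 pattern, with ACSL1 lowest and ACSL5 highest in the peak-labelled library.

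GPAM made up 74.9%, 57.5% and 77.8% of the glycerol-3-phosphate acyltransferases in early, peak and late, and GPAT4, the acyltransferase of the endoplasmic reticulum, made up nearly all of the rest. GPAT4 had 195 FPKM, 75.8 FPKM and 190 FPKM, so it followed GPAM with a smaller range. At the next step AGPAT1 was not the main transcript. AGPAT4 had 39.2, 19.0 and 47.0 FPKM, above AGPAT1 in each library, and AGPAT2 made up 11.6% of the step's FPKM in early, 27.0% in peak and 8.86% in late. LPIN1 made up 88.0%, 65.2% and 88.3% of the lipins, while LPIN2 had 9.31, 8.99 and 7.91 FPKM. DGAT1 made up 82.0%, 99.2% and 99.1% of the DGAT1 and DGAT2 sum.

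**Figure D3:**
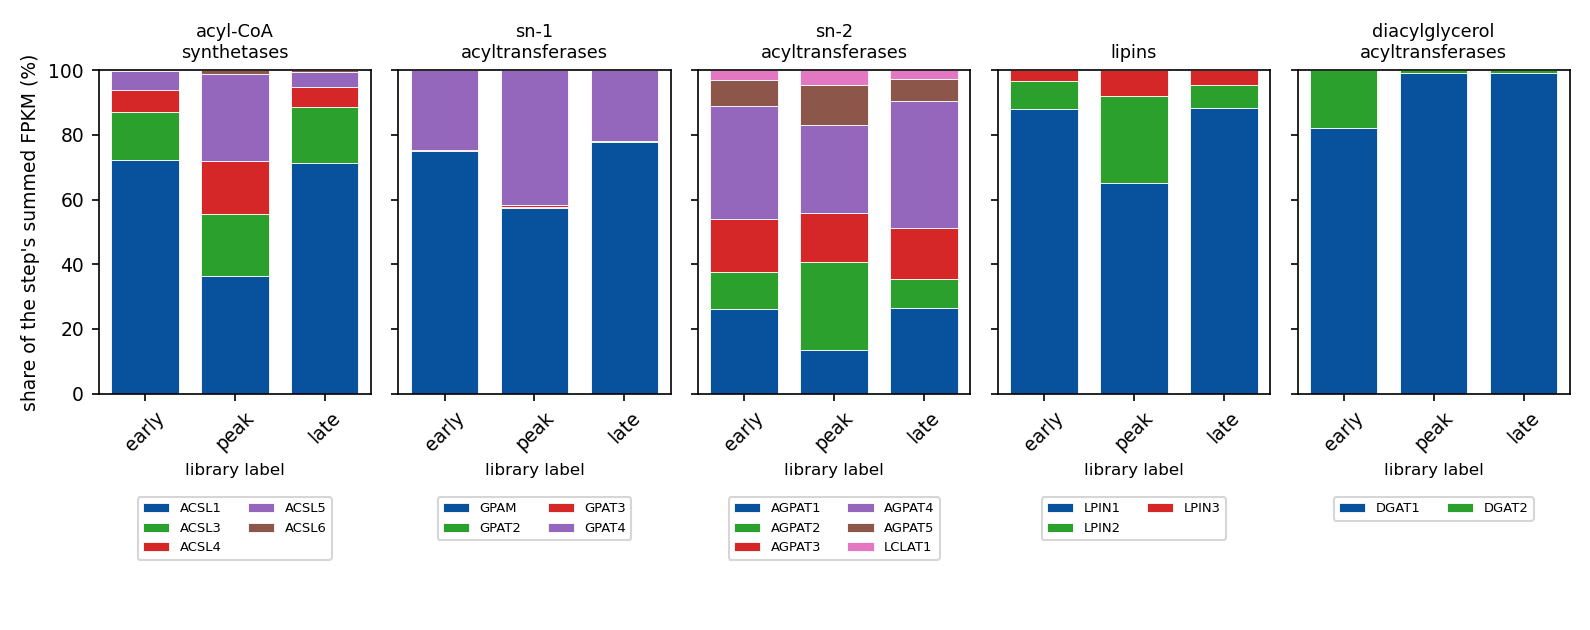
Share of the summed FPKM at each step held by each enzyme (stacked bars, percent) in each library by its label, with ACSL1, GPAM, AGPAT1, LPIN1 and DGAT1 in dark blue. The dark blue part is smallest in the peak-labelled library at the first 4 steps, with 36.3% for ACSL1, and is largest there for DGAT1.

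The wider route was described with 49 other genes, of which 44 had a row. Between the libraries labelled early and peak, 20 of the 44 differed at least 2-fold, 13 lower and 7 higher in the peak-labelled one, against 6.8% and 10.9% of protein-coding genes. Between early and late 4 of the 44 differed, CPT1A and FABP7 lower in the late-labelled one and GPIHBP1 and MOGAT1 higher, the last of these listed at 0 in early, against a background of 8.71%. Between peak and late 20 differed, 15 higher and 5 lower in the late-labelled one, against 8.55% and 17.4%. The median log2 ratio was -0.39 for peak over early, 0.02 for late over early and 0.40 for late over peak. Scaled to an equal FPKM sum without the 20 most abundant loci, the other pathway genes were split into 8 lower and 8 higher for peak over early, and into 9 higher and 7 lower for late over peak. The background under this scaling was 20.6% and 27.4% of protein-coding genes at least 2-fold apart in either direction. Calls of the wider route were thus found in both directions. By sign alone, as deposited, 32 of the 44 were below 0 for peak over early, against 49.4% of protein-coding genes. Of the 18 with a mean of at least 10 FPKM, 14 were below 0, near the 69.3% of protein-coding genes with that mean. The 9 genes were all below 0, also at an equal FPKM sum without the 20 most abundant loci. At least 2-fold lower in the peak-labelled library than in both others were 10 of the 44, against 5.25% of protein-coding genes. CD36, DBI, FABP5, GPAT4 and AGPAT4 were among them, so this pattern was not particular to the 9 genes.

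CD36, a fatty acid translocase of the cell membrane, was the most abundant of the other uptake genes, with 685 FPKM in the early-labelled library, 179 FPKM in the peak-labelled one and 782 FPKM in the late-labelled one. Its levels in early were nearly those of LPL. Among the partners of lipoprotein lipase, GPIHBP1, the protein that holds it on the capillary wall, had 1.95, 0.565 and 4.44 FPKM, the same order as LPL at a far lower level. LIPG, the endothelial lipase, had 18.5, 2.81 and 11.3 FPKM. The lipase maturation factors LMF1 and LMF2 differed by less than 1.5-fold between any of the libraries, and ANGPTL4, an inhibitor of lipoprotein lipase, had 15.8, 10.7 and 8.99 FPKM. GPIHBP1, LIPG, CD36 and LPL were thus all at least 2-fold lower in the peak-labelled library than in both others, which the maturation factors and ANGPTL4 were not. For GPIHBP1 this rests on a value below 1 FPKM in the peak-labelled library.

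LRP1, a large receptor of many cell types, was highest in the peak-labelled library, with 33.1, 67.3 and 29.1 FPKM in early, peak and late, whereas VLDLR was lowest there. Of the other members of the SLC27 family of fatty acid transporters, SLC27A1 was the most abundant at 10.7, 9.59 and 6.64 FPKM, and SLC27A4 was higher in peak than in early, at 3.90 against 1.62 FPKM.

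Most carriers and genes of glycerol 3-phosphate supply were, as FABP3 and GPAM, lowest in the peak-labelled library. FABP5, the epidermal-type carrier, had 155, 45.4 and 160 FPKM, and DBI, which binds acyl-CoA, had 177, 59.3 and 276 FPKM. FABP7 was the exception, with 7.52 FPKM in early, 3.28 FPKM in peak and 2.25 FPKM in late. GK, glycerol kinase, had 10.9, 2.57 and 10.1 FPKM, GPD1, the cytosolic glycerol-3-phosphate dehydrogenase, had 10.9, 4.77 and 7.66 FPKM, and GPD1L was the most abundant of the 3 at 21.4, 13.7 and 29.2 FPKM.

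Genes that draw fatty acids away from storage did not share 1 direction. PNPLA2, adipose triglyceride lipase, had 16.0, 7.30 and 15.6 FPKM, and its activator ABHD5 had 2.27, 6.50 and 1.29 FPKM, highest in the peak-labelled library. CPT1A, which admits acyl groups to mitochondria, had 6.63 FPKM in early, 13.0 FPKM in peak and 2.73 FPKM in late, with a log2 ratio of -2.25 for late over peak. SLC25A20, the carnitine carrier, had 13.7, 10.2 and 9.04 FPKM, above CPT1A in early and late and below it in peak. Of the genes of droplet budding, BSCL2, which encodes seipin, was the most abundant, with 8.16, 6.42 and 12.4 FPKM, and FITM2 had 4.04, 2.94 and 4.28 FPKM. LPIN3, another lipin, had 3.64, 2.62 and 5.36 FPKM, and LIPE, hormone-sensitive lipase, had 3.06, 1.97 and 4.12 FPKM. Both were called for late over peak only.

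**Figure D4:**
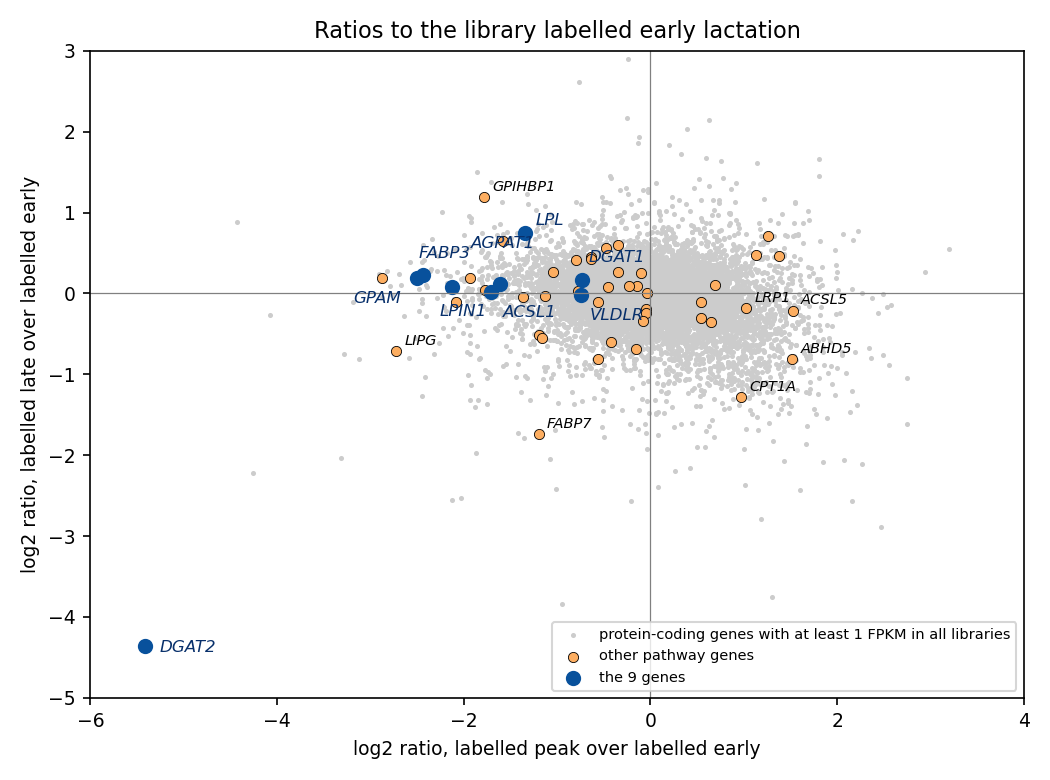
Log2 ratio to the early-labelled library for the peak-labelled one (horizontal) and the late-labelled one (vertical), for the 9 genes (blue), other pathway genes (orange) and protein-coding genes with at least 1 FPKM in all libraries (grey). The 9 genes all lie left of 0, DGAT2 alone far down at -5.41 and -4.35, while ACSL5, LRP1, ABHD5 and CPT1A lie on the right.

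The cell make-up of the tissue was described with marker genes of the cells a mammary biopsy can hold. In pooled whole tissue, fewer cells of a type and less RNA per cell cannot be told apart. Of 11 genes of secretory epithelium, 7 were at least 2-fold lower in the peak-labelled library than in the early-labelled one. The background was 6.8% of protein-coding genes, and 8.64% of those with a mean of at least 10 FPKM. Among the 7 was CSN3, with 25445 FPKM in early, 3989 FPKM in peak and 27391 FPKM in late. Of the other milk proteins, CSN1S1 had 25057, 12017 and 39445 FPKM and PAEP, beta-lactoglobulin, had 84874, 26999 and 83113 FPKM. BTN1A1 and XDH, whose proteins coat the milk fat globule, had 2940, 1241 and 3788 FPKM and 1558, 509 and 2148 FPKM. LALBA, alpha-lactalbumin, had 70053 FPKM in early and was listed at 0 in late, where a failed estimate cannot be told from absence. The epithelial keratins were not called for peak over early. KRT8 had 126, 196 and 154 FPKM, KRT18 had 21.0, 32.0 and 19.5 FPKM, and KRT19 had 439, 413 and 364 FPKM.

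The 9 genes were therefore set beside single epithelial genes. Relative to KRT8, all 9 were at least 2-fold lower in the peak-labelled library than in early, with a median log2 ratio of -2.35, and relative to KRT19 the number was 7 and the median -1.63. Relative to ELF5, a transcription factor of the secretory lineage with 879, 244 and 875 FPKM, the median was 0.14 and DGAT2 alone was at least 2-fold lower. Relative to CSN3 the median was 0.96. Relative to EHF, an epithelial transcription factor, the median was -0.76 and 4 of the 9 were at least 2-fold lower, and relative to BTN1A1 it was -0.47 with 3 of the 9. Relative to KRT18 the median was -2.32. The choice of epithelial gene thus set how far the 9 genes stood below it, and with CSN3 and ELF5 the median was above 0. KRT8 itself had a log2 ratio of 0.64 for peak over early, which enters every ratio to it. VLDLR and DGAT1, not called on their own, counted as lower relative to KRT8 for that reason. The share of all protein-coding genes was not computed for these ratios, so the counts have no background.

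Markers of other cells differed as well. Of the 4 lymphocyte genes, PTPRC, the common leukocyte antigen, had 17.6 FPKM in early, 39.9 FPKM in peak and 8.08 FPKM in late. CD79B, of B cells, had 1.08, 7.22 and 0.308 FPKM. CD3E went the other way in late, listed at 0 in early and peak and at 1.43 FPKM in late. The summed FPKM of the list was 19.7, 50.9 and 10.7. The 4 macrophage genes summed to 41.4, 56.0 and 26.6 FPKM, with CSF1R called for late over early and CSF1R and MRC1 for late over peak, lower in late in each case. At least 2-fold lower in late were 6.74% of protein-coding genes against early and 17.4% against peak. The 5 endothelial genes, of the cells that carry lipoprotein lipase on their surface, summed to 123, 111 and 135 FPKM and none was called. The 5 myoepithelial genes summed to 203, 208 and 188 FPKM, with OXTR alone called, at 3.83, 1.14 and 5.43 FPKM. No row was found for the 6 striated muscle genes. The part of the immune genes in the lower FPKM of the 9 genes was not tested.

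Several of the 9 genes are also used by fat cells, LPL, GPAM, LPIN1 and DGAT2 among them. Of 7 adipocyte genes 5 had a row, and they summed to 22.0 FPKM in early, 8.40 FPKM in peak and 10.5 FPKM in late. ADIPOQ, adiponectin, had 15.1, 4.10 and 5.69 FPKM, PLIN1 had 1.28, 0.836 and 0.468 FPKM, CIDEC had 1.73, 0.917 and 0.247 FPKM, and PLIN4 had 0.793 and 0.585 FPKM and was listed at 0 in late. LIPE, also on this list, went the other way in late, with 3.06, 1.97 and 4.12 FPKM. DGAT2, at 3.53, 0.0828 and 0.173 FPKM, was highest in the early-labelled library as ADIPOQ was, and the part of fat cells in its value was not tested. LPL, GPAM and LPIN1 were not lower in late than in early, and neither was LIPE, while the other 4 adipocyte genes with a row were.

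**Figure D5:**
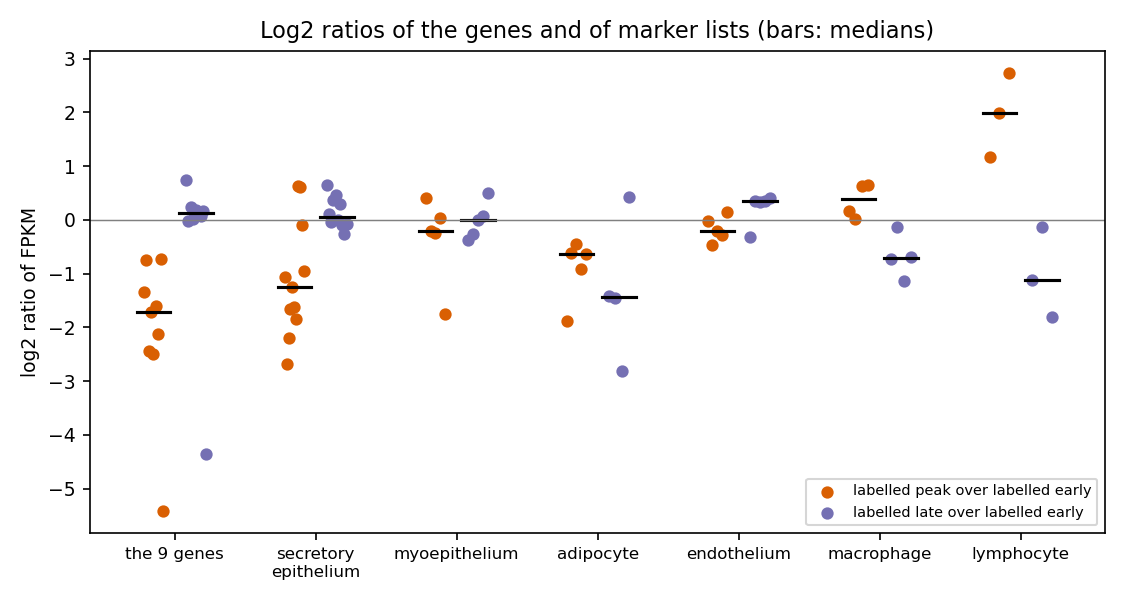
Log2 ratio of FPKM for the 9 genes and for genes of 6 marker lists, for peak over early (orange) and late over early (purple), with black bars at the medians and genes listed at 0 in either library left out. For peak over early the medians of the 9 genes and of secretory epithelium are -1.71 and -1.24, and that of the lymphocyte genes without CD3E is 1.98.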

How the data were processed

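RNA of mammary tissue from 5 goats was pooled per stage and sequenced as 1 library each for early, peak and late lactation. Per the labels and methods, the authors trimmed reads with Trimmomatic, mapped them with TopHat2 2.0.9 and Bowtie2, assembled and merged transcripts with Cufflinks 2.1.1 and its Cuffmerge step, and took abundances from Cuffdiff. What they deposited is 1 FPKM per library for each of 50041 loci, on scaffolds of a goat genome, for which the methods name a genome version for mapping and a RefSeq assembly for transcript assembly without saying which the coordinates follow. Between 40.3% and 46.1% of the deposited values had 7 significant digits, and of these 95.7% to 99.3% ended in 5, as means of pairs of 6-digit values would, and no averaging is stated.

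Gene IDs were matched to the RefSeq gene table of ARS1.2 for symbols and classes only, and a match was found for 14290 of the 15161 loci that carry 1 gene ID. FPKM were added up per gene ID, which gave 13023 protein-coding genes. A gene was called when FPKM differed at least 2-fold, with 0 set to 0.001. No test was run, since each stage has 1 library. The 9 genes, the pathway lists and the marker lists were chosen with earlier results of these data known. The named genes are all members, pathway and marker genes at least 2-fold apart with at least 1 FPKM in both libraries, the most abundant gene of each pathway class, and the most alike pairs. Others, such as LMF1, ANGPTL4, LPIN2, FITM2 and the keratins, were named after their values were seen. A gene of the wider pathway that this rule names is not reported here. No protein, promoter or transcript sequence was used here. Alternatives were other folds, pseudocounts, choices of loci, scalings, filters on low FPKM and exchanged columns. Python 3.11.15, numpy 2.4.6, pandas 2.3.3 and matplotlib 3.10.9 were used.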

Additional observations from a re-analysis of the deposited data

How the results depend on the processing

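With the columns labelled peak and late exchanged, the 9 genes had 1 call for peak over early and 7 for late over early. Their medians were 0.12 and -1.71. The other pathway genes had 4 and 20 calls, and the background was 8.71% and 17.7% of protein-coding genes. The median of the 9 genes for late over peak was -1.74. Lower in peak than in both others were 0 of the 9 genes, against 5.84% of protein-coding genes. The log2 ratio of peak over early then became 0.75 for LPL, 0.23 for FABP3, 0.023 for ACSL1, 0.19 for GPAM, 0.12 for AGPAT1 and 0.080 for LPIN1, and that of late over peak became -2.09 for LPL, -2.67 for FABP3, -1.74 for ACSL1, -2.69 for GPAM, -1.73 for AGPAT1, -2.21 for LPIN1 and -1.06 for DGAT2. At a fold of at least 4, calls of the 9 genes numbered 4 for peak over early and 4 for late over peak. The other pathway genes numbered 4, 1 and 7 of 44 for peak over early, late over early and late over peak. The background was 3.56%, 3.28% and 8.66% of protein-coding genes in these comparisons. At this fold 3 of the 9 genes were lower in peak than in both others, against 0.968%. At 1.5-fold, late over early had 2 calls among the 9 genes, LPL and DGAT2, and 12 among the 44 other pathway genes. The background there was 17.8% of protein-coding genes. With a pseudocount of 1, the other pathway genes numbered 13 for peak over early and 2 for late over early, against 9.17% and 2.13%. A stricter threshold and a pseudocount call fewer genes by construction. Requiring at least 1 FPKM in both libraries, or a mean of at least 10 FPKM, the latter chosen after seeing the data, left out DGAT2 and gave 0 calls for late over early. The background was then 2.88% and 1.77% of protein-coding genes.

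The median log2 ratio of the 9 genes for peak over early was -1.68 with a pseudocount of 1, -1.69 when centred on the median gene, -1.57 at an equal FPKM sum, -1.47 at an equal sum without the 20 most abundant loci and -1.66 with at least 1 FPKM in both. For late over early it was 0.13, 0.25, 0.15 and 0.14 under the last 4 of these. For late over peak it was 1.70, 1.70, 1.72, 1.52 and 1.91 under all 5, and 1.73 with a pseudocount of 0.1. Leaving out the 20 most abundant loci moved the median of protein-coding genes, taken where both libraries reached 1 FPKM, to 0.24 for peak over early and -0.22 for late over peak. This scaling multiplies all genes of a library by the same factor. It therefore cannot test how far the 9 genes stand from other genes. No locus overlapped any of the 9 genes, each had 1 locus, and the choices of loci left their values as they were. The count of genes lower in peak than in both others was added after seeing the values. There was no replicate to leave out. No paired analysis was possible because the stages have only 1 library each, although the methods read as if the same goats were sampled at each stage.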

Other observations

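Assembled loci without a gene ID lay close to several of the 9 genes, and they were listed after the values of the genes had been seen. The nearest to LPIN1, XLOC_024240, lies 378 nt from it and had 34.1 FPKM in the early-labelled library, 16.9 FPKM in the peak-labelled one and 38.5 FPKM in the late-labelled one. XLOC_024241, 994 nt from LPIN1, had 16.4, 7.49 and 23.1 FPKM. Both were at least 2-fold lower in peak than in early and had the same order of libraries as LPIN1, with a smaller range. Within 10 kb of LPIN1 there were 8 such loci, 9 near ACSL1, 5 near FABP3 and 0 near DGAT1 and DGAT2.

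Loci without a gene ID near FABP3 did not share 1 order of libraries. XLOC_003696, 2651 nt from FABP3, had 2.59 FPKM in early, 0.167 FPKM in peak and 2.96 FPKM in late, so its peak value was below 1 FPKM. XLOC_004227, 706 nt away, had 6.40, 8.77 and 9.54 FPKM, less than 2-fold apart in every comparison. The nearest to ACSL1, XLOC_047893 at 625 nt, had 5.67, 3.92 and 8.92 FPKM and XLOC_043683, 7052 nt from AGPAT1, had 12.5, 3.88 and 9.21 FPKM. The nearest to LPL, XLOC_017579 at 2297 nt, had 1.48 FPKM in early, 0.268 FPKM in peak and 0.671 FPKM in late and so did not share the high value of LPL in late. Strand was not given for these loci, and whether any of them belongs to the neighbouring gene was not tested.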
